A study of Mus musculus with 21 samples.

Results

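Pre-mRNA splicing factors were followed in sorted mouse medulloblastoma cells. The members were all probe sets whose gene symbol on the platform began with Hnrnp or Snrp, with Srsf followed by a digit, or with Sf3a or Sf3b. This rule found 139 of the 45101 probe sets, which stood for 47 genes. After dim probe sets were left out (mean signal under about 15.53 over all arrays), 134 probe sets and 46 genes were tested: 9 Srsf, 19 Hnrnp, 9 Snrp, 3 Sf3a and 6 Sf3b genes. Srsf12 was too dim to be tested. Another 16 probe sets list a member symbol together with other symbols and were left out, among them the only one for Snrpd1.

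All 21 arrays held total RNA of primary tumour cells from the cerebellum of mice with Patched medulloblastoma, separated by CD15, a carbohydrate of the cell surface also called Lewis X. The conventional tumours gave CD15 positive (n = 6) and CD15 negative (n = 6) arrays, and the Math1-GFP tumours gave CD15 positive (n = 4) and CD15 negative (n = 5) arrays. Math1 names a transcription factor that granule neuron precursors express, and GFP a fluorescent protein. Groups follow the titles, although the description field of the 9 Math1-GFP samples also reads conventional. Strain, age, Patched allele, the form of the Math1-GFP reporter and the sorting gates are not stated in the labels. These do not say whether each sample was a different animal, and p-values therefore measure just the spread between samples, which may be technical. Titles of the conventional samples end in a different label from those of the Math1-GFP samples, so the tumour model and what that label stands for cannot be told apart.

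Introns are removed by the spliceosome, which is built on small nuclear ribonucleoprotein particles (snRNPs). The Snrp genes encode the Sm proteins, which form a ring on most spliceosomal RNAs, and proteins particular to the U1 and U2 particles. SF3A and SF3B are parts of the U2 snRNP and help it to hold the branch point of the intron. SR proteins (Srsf genes) bind mainly exons and usually promote their inclusion, whereas hnRNP proteins coat nascent RNA and often oppose inclusion. These genes are expressed in nearly all cells, and several Hnrnp and Srsf genes make alternative transcripts that regulate their own level. Medulloblastoma of Patched mice arises in the granule neuron lineage, and 7 of 7 tested markers of that lineage were expressed in every group, with a mean log2 value per array between 10.1 and 11.1.

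Promoters are shown for 5 members of the Snrp, Sf3a and Srsf families whose values on the arrays are given in the comparisons. RefSeq promoter sequences of assembly GRCm38.p6 matched 41 of the 46 tested genes in 57 windows, each the 150 bases before a transcription start. In all, 4 motifs were searched on both strands and are in capitals: the Ets motif (letters CCGGAAGT), the E-box (letters CACGTG), the CCAAT box (the letters of its name) and the GC box (letters GGGCGG). The windows are given 5′ to 3′ along the gene. Snrpd3 lies on the plus strand at chr10:75517892-75518041, Snrpf on the minus strand at chr10:93589659-93589808, and Sf3a3 on the plus strand at chr4:124714711-124714860. Srsf3 lies on the plus strand at chr17:29032510-29032659 and Srsf10 on the plus strand at chr4:135855921-135856070.
Snrpd3: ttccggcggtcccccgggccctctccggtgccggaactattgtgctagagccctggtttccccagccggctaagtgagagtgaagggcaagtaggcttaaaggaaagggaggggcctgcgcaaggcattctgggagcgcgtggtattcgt
Snrpf: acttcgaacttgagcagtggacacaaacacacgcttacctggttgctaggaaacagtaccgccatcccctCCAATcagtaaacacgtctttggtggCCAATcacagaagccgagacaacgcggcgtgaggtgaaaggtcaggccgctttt
Sf3a3: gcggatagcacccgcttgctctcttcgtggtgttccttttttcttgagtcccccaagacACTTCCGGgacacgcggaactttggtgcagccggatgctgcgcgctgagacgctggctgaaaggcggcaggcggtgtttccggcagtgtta
Srsf3: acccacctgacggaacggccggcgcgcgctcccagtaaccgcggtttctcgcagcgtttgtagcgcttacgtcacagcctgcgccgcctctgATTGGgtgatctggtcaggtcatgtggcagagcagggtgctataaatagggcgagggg
Srsf10: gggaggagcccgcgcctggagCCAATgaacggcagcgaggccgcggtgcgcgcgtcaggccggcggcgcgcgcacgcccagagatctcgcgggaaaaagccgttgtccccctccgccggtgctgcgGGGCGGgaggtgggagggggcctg
The Snrpd3 window held none of the motifs, those of Snrpf and Srsf3 held the CCAAT box, that of Sf3a3 held the Ets motif, and that of Srsf10 held the CCAAT and GC boxes. Among the 57 member windows, 22 (38.6%) held the CCAAT box and 30 (52.6%) the GC box, against 24.5% and 28.6% of all 32851 windows. The Ets motif was in 10.5% of member windows and 2.4% of all windows, and the E-box in 3.51% and 4.3%. Of the 11 Snrp windows, 2 held a GC box and 3 a CCAAT box. Some genes had several windows, which could overlap, as for Sf3b2, whose windows share an Ets motif. The windows are thus not independent promoters. These matches describe letters only.

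Values are log2(signal + 32) of the brightest probe set of a gene, and differences are log2 fold changes with the standard error (SE) of a limma fit to all 21 arrays. A gene was called at a Benjamini-Hochberg adjusted p under 0.05 over all 12367 genes tested. The fit treated all arrays as independent, although same-numbered conventional arrays deviated together, so p-values between the models may be too small. Every array, as deposited, was found to have a common trimmed mean of 150. Median signals of the arrays ran from 22.1 to 32.7, and the highest signal of an array from 17406 to 55079 in the conventional and from 10354 to 20363 in the Math1-GFP groups. Quantile normalization, which forces the arrays to 1 distribution, was run as an alternative. In bulk samples, fewer cells of a type and less RNA per cell cannot be told apart.

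In conventional tumours, 10 of the 46 splicing factor genes rose and 0 fell in CD15 positive against CD15 negative cells, where 3.05% of all genes rose. The other 36 did not pass the test. The 10 were 5 of 9 Snrp, 2 of 9 Srsf, 2 of 19 Hnrnp, 1 of 3 Sf3a and 0 of 6 Sf3b genes. The median difference was 0.23 for the members and -0.02 for all genes, and 41 of 46 members had a positive difference, against 47.3% of all genes. After quantile normalization 34 were positive and the median was 0.08. In all, 2 members were then called higher, where 2.63% of all genes rose: Snrpb (0.29, adjusted p = 0.0284) and Sf3a3 (0.32, adjusted p = 0.0174, limma). The 8 calls lost with quantile normalization were Snrpf (0.36, adjusted p = 0.077), Snrpd3 (0.28, adjusted p = 0.0846), Srsf9 (0.26, adjusted p = 0.105), Snrpa1 (0.22, adjusted p = 0.136), Hnrnpd (0.18, adjusted p = 0.168), Snrpc (0.23, adjusted p = 0.253), Srsf3 (0.15, adjusted p = 0.294) and Hnrnpu (0.14, adjusted p = 0.429, limma). In all, 4 were called when CD15 positive array 4 was left out, 5 without array 5 of the CD15 negative group, and 6 when array 1 or array 3 of the CD15 positive group was left out.

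Snrpb, which encodes the Sm proteins B and B′, had the smallest p among the members. Its lowest, median and highest values were 11.70, 11.76 and 12.02 in CD15 positive and 11.20, 11.35 and 11.63 in CD15 negative conventional cells. All 6 CD15 positive arrays lay above all 6 CD15 negative ones, and the difference was 0.44 ± 0.09 (SE), a 1.35-fold level (adjusted p = 0.00454, limma). Snrpd3, another protein of the Sm ring, measured 12.02, 12.24 and 12.43 against 11.39, 11.78 and 12.00. These groups did not overlap either, and Snrpd3 rose by 0.44 ± 0.10 (SE; adjusted p = 0.0101, limma).

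Snrpf, also of the Sm ring, showed the largest difference of any member. It measured 11.72, 11.84 and 12.20 in CD15 positive and 10.89, 11.55 and 11.71 in CD15 negative cells, again with no overlap. It rose by 0.50 ± 0.13 (SE), or 1.42-fold (adjusted p = 0.0172, limma). Snrpa1, a protein of the U2 particle, rose by 0.32 ± 0.09 (SE; adjusted p = 0.0291), and Snrpc, a protein of the U1 particle, by 0.36 ± 0.11 (SE; adjusted p = 0.0411). Differences for Snrpe (0.31 ± 0.10, adjusted p = 0.0684) and Snrpg (0.44 ± 0.19, adjusted p = 0.179), the remaining tested Sm ring genes, did not pass. Snrpn, whose product resembles that of Snrpb and is known from neurons, gave 0.19 ± 0.23 from a dim probe set with a mean log2 value of 6.01.

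Sf3a3, a subunit of SF3A, measured 9.92, 10.06 and 10.22 in CD15 positive and 9.49, 9.71 and 9.84 in CD15 negative conventional cells, with no overlap. It rose by 0.36 ± 0.08 (SE; adjusted p = 0.0119, limma). None of the 6 Sf3b genes was called. Sf3b1, the subunit that contacts the branch point, gave -0.04 ± 0.09 (SE), and its lowest, median and highest values were 10.50, 10.83 and 10.91 against 10.63, 10.83 and 10.93, which overlapped throughout.

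Srsf3 and Srsf9, both small SR proteins, were the Srsf genes called. Srsf3 measured 12.61, 12.95 and 13.09 against 12.33, 12.46 and 12.79, which overlapped, and rose by 0.39 ± 0.11 (SE; adjusted p = 0.0246, limma). Srsf9 measured 10.78, 10.98 and 11.03 against 10.16, 10.65 and 10.83, and rose by 0.35 ± 0.10 (SE; adjusted p = 0.0284). Srsf1 and Srsf2, widely studied regulators of exon inclusion, gave 0.27 ± 0.11 (adjusted p = 0.174) and 0.26 ± 0.09 (adjusted p = 0.0698). Averaging the probe sets of Srsf3 in place of taking the brightest gave 0.15 (adjusted p = 0.419).

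Among the hnRNP genes, Hnrnpd and Hnrnpu were called. Hnrnpd, whose product binds AU-rich elements of messenger RNA, measured 12.35, 12.43 and 12.58 against 11.97, 12.10 and 12.17 and rose by 0.37 ± 0.08 (SE; adjusted p = 0.00882, limma). Hnrnpu, which also binds chromatin-associated RNA, measured 12.24, 12.38 and 12.60 against 11.88, 12.09 and 12.23 and rose by 0.34 ± 0.10 (SE; adjusted p = 0.0468). Neither gene's groups overlapped. The Hnrnpu call was lost in 23 of 36 alternatives, among them a block for same-numbered arrays, and that of Hnrnpd in 4 of 36. The abundant hnRNP genes Hnrnpa1 (0.15 ± 0.10, adjusted p = 0.397), Hnrnpa2b1 (0.40 ± 0.14, adjusted p = 0.087) and Hnrnpk (0.13 ± 0.11, adjusted p = 0.577) did not pass. Averaged over their probe sets, the differences of Hnrnpd, Hnrnpu, Snrpd3 and Snrpc were 0.04, 0.05, 0.07 and 0.17 and none passed (adjusted p = 0.364 to 0.909, limma).

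**Figure D1:**
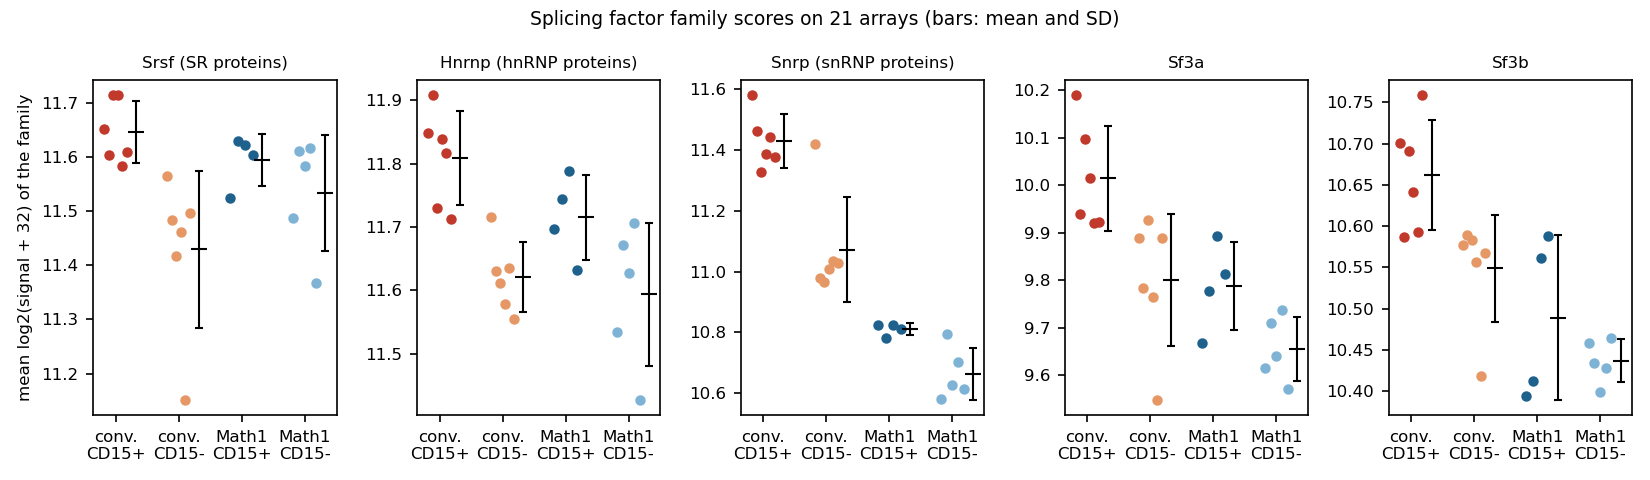
Family scores, the mean log2(signal + 32) of the tested genes of a family, on each of the 21 arrays (points), with the mean and SD of each group beside them. The Snrp scores of all 9 Math1-GFP arrays (10.58 to 10.82) lie below those of all 12 conventional arrays (10.96 to 11.58).

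Across the families, 8 of the 46 genes had all 6 CD15 positive arrays above all 6 CD15 negative arrays in conventional tumours, against 1.89% of all genes. Numbers in the titles pair 5 CD15 positive with 5 CD15 negative conventional arrays. In all 5 pairs the CD15 positive array was the higher one for 25 of 46 genes: 8 of 9 Snrp, 6 of 9 Srsf, 8 of 19 Hnrnp, 2 of 3 Sf3a and 1 of 6 Sf3b genes. No gene was lower in all 5. The same counts were not taken over all genes, and these arrays also gave the calls above. The conventional arrays were also split into 2 sets, arrays 2 to 5 and the other 4. By deviations from group means, array 5 was not close to arrays 2 to 4 of the other fraction (correlations -0.17 to 0.05). Within arrays 2 to 5 and within the other 4 arrays the difference of Snrpb was 0.44 in both, that of Snrpd3 0.50 and 0.33, and that of Srsf3 0.50 and 0.18. Within these sets 1 gene and 0 genes were called.

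Other gene lists moved between the same cells. In conventional tumours 18 of 19 mitosis genes rose in CD15 positive cells, with summed signals of 32092 to 41749 against 12938 to 26692, and 15 of 17 neuronal differentiation genes fell, with summed signals of 8674 to 15517 against 20302 to 38496. The part of these differences in the splicing factor result was not tested. None of 10 microglia markers was called, with summed signals from 643 to 12021 in CD15 positive and from 248 to 3634 in CD15 negative cells.

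In Math1-GFP tumours no member passed the test for CD15 in either direction. The same comparison called 0.0404% of all genes in either direction, so it gave few calls anywhere. With consecutive Math1-GFP title numbers as a block, a pairing that the labels do not state, 1 member was called, Hnrnpl (0.36, adjusted p = 0.0495, against 0.38 and 0.604 without it, limma), named here after its values were seen. The median difference of the members was 0.13, and 41 of 46 were positive, against 50.9% of all genes; after quantile normalization 32 were positive. An unadjusted p under 0.05 was found for 2 members by limma and for 4 with trend and robust estimation, and for 8.68% of all genes by limma.

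Srsf9 had the smallest p. Its CD15 positive Math1-GFP arrays 1, 5, 7 and 9 measured 10.75, 10.64, 10.75 and 10.69, and its CD15 negative arrays 2, 4, 6, 8 and 10 measured 10.44, 10.40, 10.39, 10.37 and 10.34. The groups did not overlap, and the difference was 0.32 ± 0.11 (SE; adjusted p = 0.333, limma), beside 0.35 in conventional tumours. Hnrnpul1, a protein related to Hnrnpu, gave 0.33 ± 0.14 (SE; adjusted p = 0.457), and Hnrnpd gave 0.19 ± 0.10 (SE; adjusted p = 0.596). Snrpb gave 0.16 ± 0.10 (SE; adjusted p = 0.728): its CD15 positive arrays measured 11.21, 11.18, 11.31 and 11.37, and its CD15 negative arrays 11.05, 11.20, 11.13, 11.09 and 11.08, which overlapped.

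**Figure D2:**
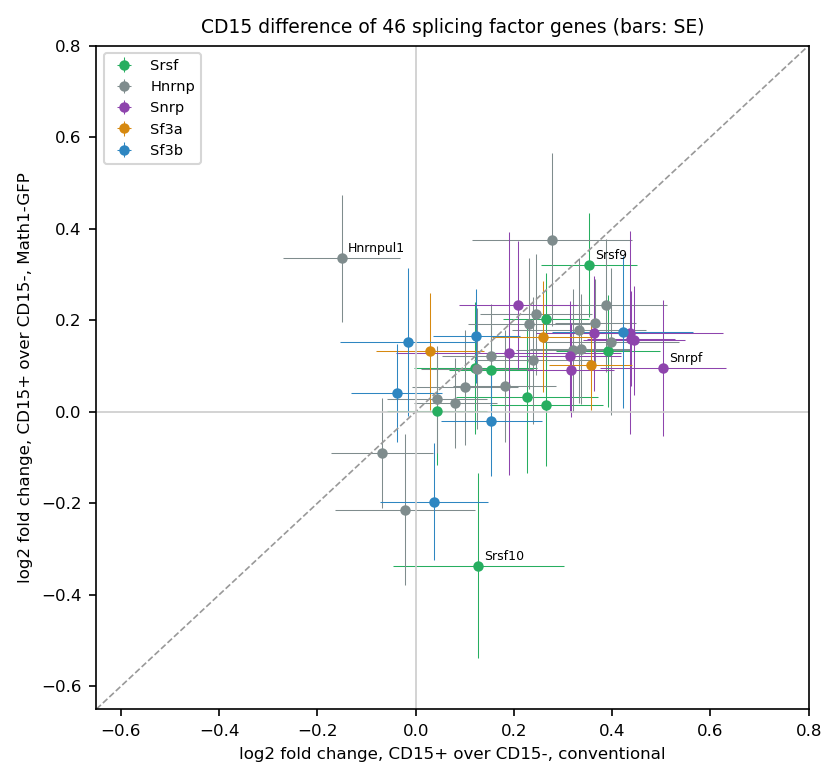
CD15 difference of each of the 46 genes in Math1-GFP (vertical axis) against conventional tumours (horizontal axis), as log2 fold changes with SE bars, coloured by family, with a dashed line of equal difference. Snrpf lies at 0.50 in conventional and 0.09 in Math1-GFP tumours, and Hnrnpul1 at -0.15 and 0.33.

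A difference between the models in the CD15 effect was tested by the interaction. It was called for 0 members by limma, as for 0% of all genes, and an unadjusted p under 0.05 was found for 1 member (3 with trend and robust estimation), against 2.26% of all genes. That member was Hnrnpul1, with an interaction of 0.49 ± 0.18 (SE; unadjusted p = 0.0148, adjusted p = 1, limma). Its CD15 positive Math1-GFP arrays measured 11.13, 10.98, 10.87 and 10.68, and the CD15 negative ones 10.85, 10.52, 10.66, 10.27 and 10.60. Snrpf gave -0.41 ± 0.20 (SE; unadjusted p = 0.0501) and Snrpb -0.28 ± 0.14 (SE; unadjusted p = 0.0557, limma). The CD15 effect was thus not shown to differ between the models for any member.

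Averaged over both models, 9 members rose with CD15 and 0 fell, against 3.77% of all genes that rose. These arrays are those of the comparisons above. Srsf9 rose by 0.34 ± 0.07 (SE; adjusted p = 0.00594), Hnrnpd by 0.28 ± 0.06 (adjusted p = 0.00704) and Snrpb by 0.30 ± 0.07 (adjusted p = 0.00777, limma). Snrpd3, Sf3a3, Srsf3 and Snrpc were also called, with Srsf2 (0.23 ± 0.07, adjusted p = 0.0316) and Hnrnpf (0.31 ± 0.10, adjusted p = 0.0455), neither of which passed in conventional tumours alone. The count was 4 without Math1-GFP CD15 negative array 10 or CD15 positive array 9, and 5 without Math1-GFP CD15 positive array 7 or conventional CD15 positive array 4. After quantile normalization it was 3 (Snrpb, Sf3a3 and Srsf9), where 3.84% of all genes rose. With the block of consecutive numbers it was 25, for which the share of all genes is not given here.

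Between the tumour models the families parted. Across both CD15 fractions, 8 of 9 Snrp genes fell in Math1-GFP tumours and 0 rose, with a median of -0.51, whereas 5 of 19 Hnrnp genes rose and 6 fell, and 2 of 9 Srsf genes rose and 2 fell. Of the Sf3a genes 1 fell, and of the Sf3b genes 1 rose and 2 fell. In all, 8 members rose, against 18.7% of all genes, and 19 fell, against 20.5%. After quantile normalization the split turned to 23 higher and 9 lower (all genes 14.5% and 24.7%): Hnrnp genes then stood at 14 higher and 1 lower, Srsf genes at 6 higher, and all 9 Snrp genes remained negative, 5 of them called lower (Snrpa1, Snrpb2, Snrpc, Snrpd3 and Snrpf). In both scalings 17 genes were called the same way, and 3 Hnrnp genes were called in opposite directions.

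**Figure D3:**
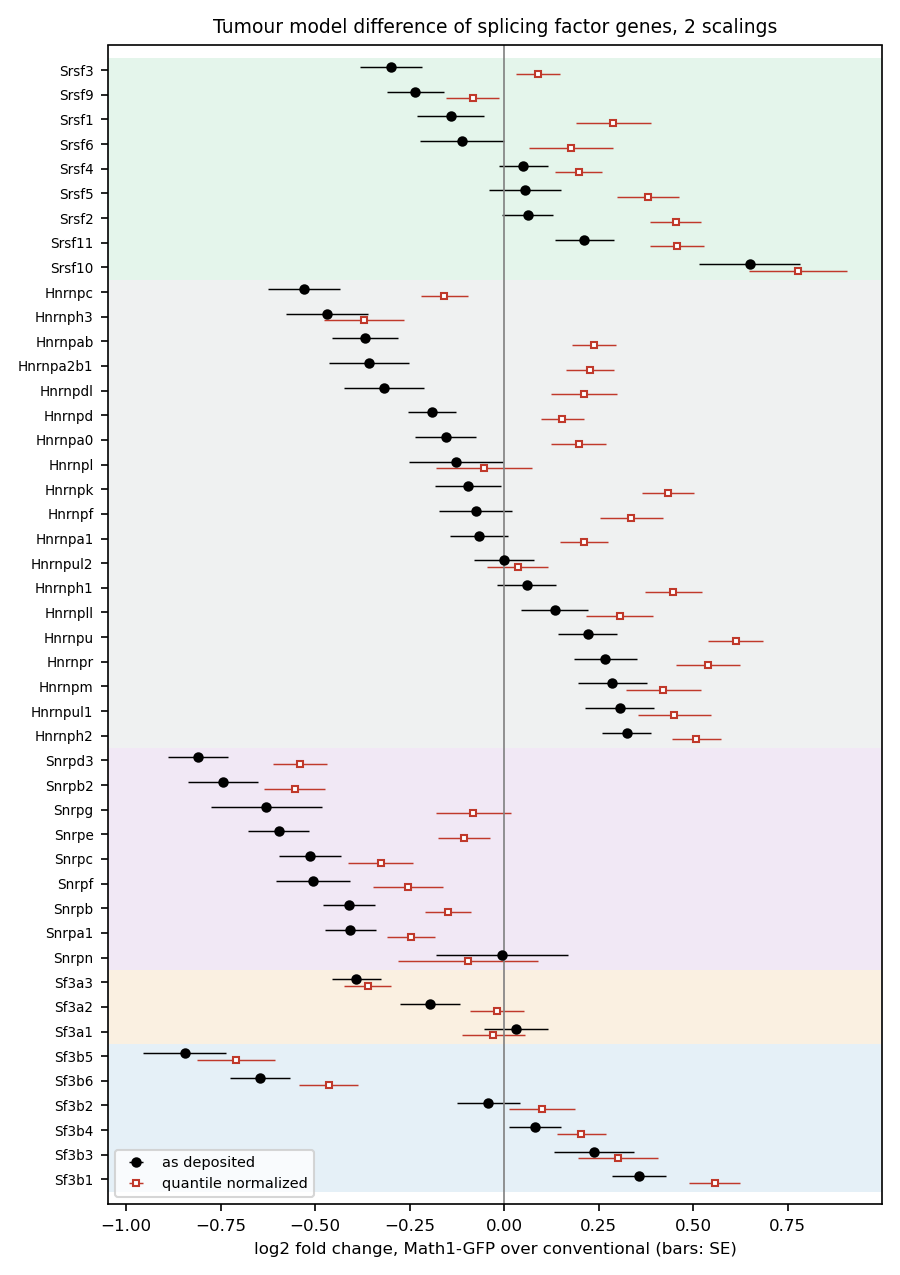
Difference of Math1-GFP from conventional tumours (log2 fold change, SE bars) for the 46 genes, ordered within families, with the deposited scaling (filled) and after quantile normalization (open squares). Snrp genes stay below 0 in both, while Srsf1, Srsf3 and many Hnrnp genes, such as Hnrnpk and Hnrnpa1, move from below to above 0.

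Snrpd3 had the smallest p of all members in this comparison. Its Math1-GFP CD15 positive arrays measured 11.25, 11.24, 11.20 and 11.34 and its CD15 negative arrays 10.99, 11.28, 11.02, 11.07 and 11.14, all below the lowest conventional array at 11.39. It fell by 0.81 ± 0.08 (SE; adjusted p = 2.6e-07, limma), to 0.57 of the conventional level. With its 3 probe sets averaged the difference was -0.11 (adjusted p = 0.386). Snrpb2, a protein of the U2 particle, measured 11.03, 10.51, 10.74 and 10.67 in CD15 positive and 10.58, 10.38, 10.34, 10.72 and 10.50 in CD15 negative Math1-GFP arrays, below the lowest conventional value of 11.11. It fell by 0.74 ± 0.09 (SE; adjusted p = 3.56e-06).

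Further Sm and U1 or U2 proteins gave smaller differences. Snrpe fell by 0.60 ± 0.08 (SE; adjusted p = 8.53e-06, limma) and Snrpg by 0.63 ± 0.15 (adjusted p = 0.00207), but after quantile normalization neither passed (adjusted p = 0.225 and 0.544). Snrpc and Snrpf each fell by 0.51 (adjusted p = 6.36e-05 and 0.000426), and Snrpa1 and Snrpb each fell by 0.41 (adjusted p = 8.38e-05 and 9.75e-05). Quantile normalization gave -0.33, -0.25 and -0.25 for Snrpc, Snrpf and Snrpa1, still called, and -0.15 for Snrpb, which did not pass (adjusted p = 0.0535). Snrpn gave -0.01 ± 0.18 (SE).

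The change in balance between families was also taken within each array, as the Snrp score minus the Hnrnp score, which a common scaling factor of an array leaves nearly as it is. It ran from -0.45 to -0.27 in conventional CD15 positive, from -0.65 to -0.30 in conventional CD15 negative, from -0.96 to -0.82 in Math1-GFP CD15 positive and from -1.01 to -0.81 in Math1-GFP CD15 negative arrays. The models did not overlap. In all 5 same-numbered conventional pairs the value was higher in the CD15 positive array, and the ranges of the conventional fractions overlapped only through the unnumbered CD15 negative array at -0.30, since the other 5 reached at most -0.53. The Snrp score minus the Srsf score also kept the models apart, at most -0.70 in Math1-GFP and at least -0.50 in conventional arrays. In pair 5, however, that value was lower in the CD15 positive array (-0.14 against -0.12). In Math1-GFP tumours the fractions overlapped with either score. This shows unequal differences of the families, not which of them changed.

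In the U2 snRNP, members of SF3A and SF3B went in both directions. Sf3b5, a small subunit of SF3B, measured 10.14, 10.07, 10.37 and 10.38 in CD15 positive and 9.85, 10.09, 10.14, 10.15 and 10.09 in CD15 negative Math1-GFP arrays. Only the lowest conventional array (10.14, CD15 negative) reached into this range. Sf3b5 fell by 0.84 ± 0.11 (SE), to 0.557 of the conventional level (adjusted p = 6.44e-06, limma), the largest fall of any member.

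Sf3b6, which sits at the branch point with Sf3b1, measured 10.66, 10.38, 10.54 and 10.74 in CD15 positive and 10.81, 10.55, 10.37, 10.53 and 10.75 in CD15 negative Math1-GFP arrays, all below the lowest conventional array at 10.98. It fell by 0.64 ± 0.08 (SE; adjusted p = 3.21e-06, limma), and Sf3a3 fell by 0.39 ± 0.07 (adjusted p = 9.14e-05). The other Sf3a3 probe set, 1432488_a_at, gave 0.03, although the Sf3a3 call held with the 2 averaged. Sf3b1 went the other way. It measured 11.17, 11.12, 11.17 and 11.20 in CD15 positive and 11.37, 11.12, 11.14, 10.95 and 11.06 in CD15 negative Math1-GFP arrays, all above the highest conventional array at 10.93, and rose by 0.36 ± 0.07 (SE; adjusted p = 0.000532). With its probe sets averaged Sf3b1 gave 0.17 (adjusted p = 0.0517).

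**Figure D4:**
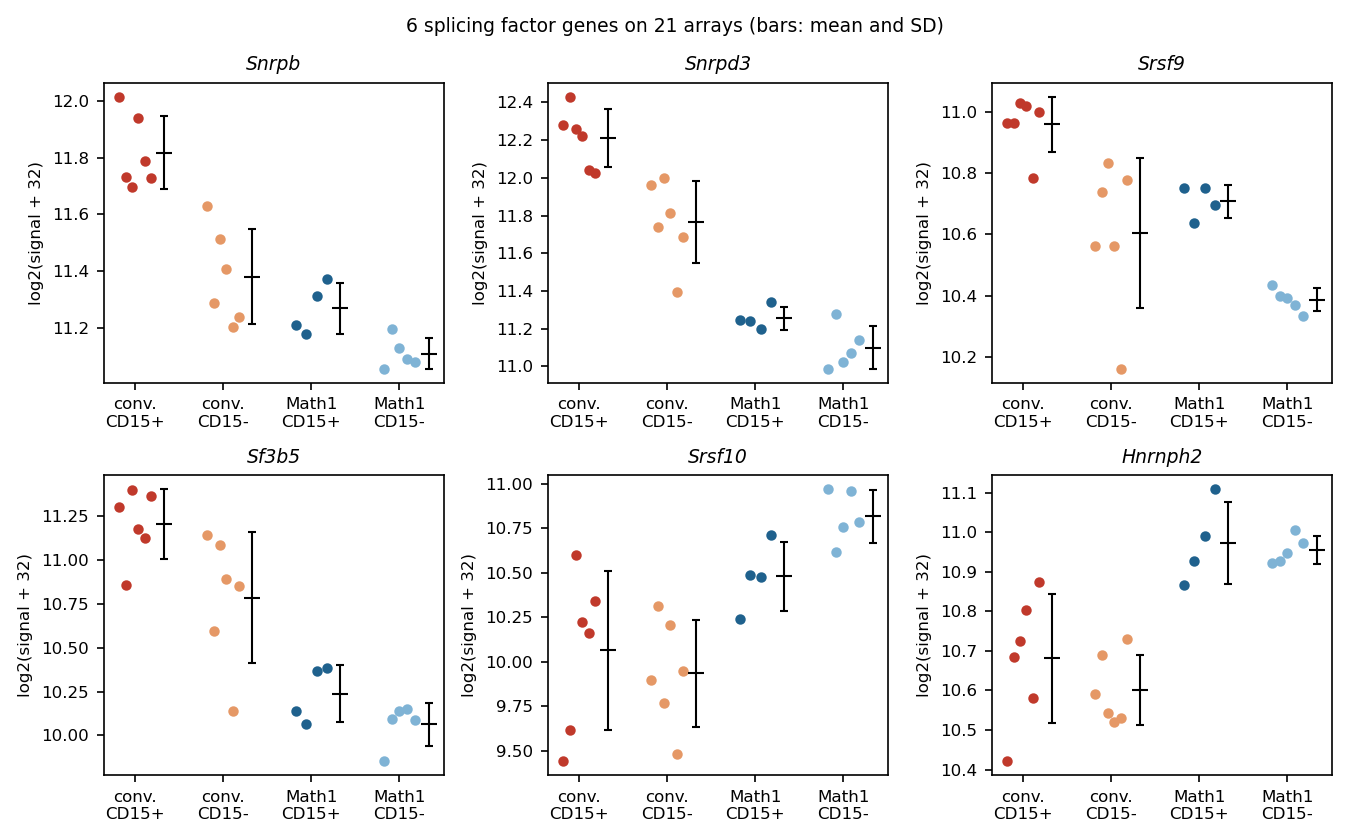
Level of 6 members, as log2(signal + 32), on each of the 21 arrays (points), with group mean and SD. Every Math1-GFP value of Snrpd3 lies below the lowest conventional value of 11.39, and Srsf10 and Hnrnph2 lie higher in Math1-GFP groups, with overlap.

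Among the SR proteins, Srsf10, which can act as a repressor of splicing, rose most. Its Math1-GFP CD15 positive arrays measured 10.24, 10.49, 10.48 and 10.71 and its CD15 negative arrays 10.97, 10.62, 10.75, 10.96 and 10.78, whereas the lowest, median and highest conventional values were 9.44, 10.19 and 10.60 in CD15 positive and 9.48, 9.92 and 10.31 in CD15 negative cells. The models overlapped, and Srsf10 rose by 0.65 ± 0.13 (SE), or 1.57-fold (adjusted p = 0.000717, limma). Srsf11 rose by 0.21 ± 0.08 (adjusted p = 0.0374). This call was lost in 14 of 33 alternatives, most of them the removal of 1 array. Of the 4 Srsf11 probe sets 2 were called higher, whereas 1427269_at gave -0.07. Srsf3 fell by 0.30 ± 0.08 (adjusted p = 0.00625) with the deposited scaling but was at 0.089 (adjusted p = 0.238) after quantile normalization, and Srsf9 fell by 0.23 ± 0.07 (adjusted p = 0.0177) but gave -0.08 (adjusted p = 0.366) after it.

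Among the hnRNP genes, Hnrnph2, whose product binds runs of G, rose by 0.32 ± 0.06 (SE; adjusted p = 0.000587, limma). It measured 10.87, 10.93, 10.99 and 11.11 in CD15 positive and 10.92, 10.93, 10.95, 11.01 and 10.97 in CD15 negative Math1-GFP arrays, and 1 conventional array reached 10.87. Hnrnpul1 (0.31 ± 0.09, adjusted p = 0.0122), Hnrnpm (0.29 ± 0.09, adjusted p = 0.018), Hnrnpr (0.27 ± 0.08, adjusted p = 0.0143) and Hnrnpu (0.22 ± 0.08, adjusted p = 0.0311) rose too, and all 5 were higher in both scalings.

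Hnrnpc, which binds runs of U in introns, had the smallest p among hnRNP genes that fell. It measured 12.33, 12.23, 12.40 and 12.19 in CD15 positive and 12.00, 12.29, 12.17, 12.22 and 11.80 in CD15 negative Math1-GFP arrays, all below the lowest conventional array at 12.46. It fell by 0.53 ± 0.09 (SE; adjusted p = 0.000196, limma), but gave -0.16 (adjusted p = 0.0506) after quantile normalization. The other Hnrnpc probe set past the filter, 1418693_at (mean log2 value 9.70), gave 0.0003, although the call held with the 2 averaged. Hnrnpab (-0.37 ± 0.09), Hnrnpa2b1 (-0.36 ± 0.11), Hnrnpdl (-0.32 ± 0.10) and Hnrnpd (-0.19 ± 0.06) fell with the deposited scaling and turned to 0.24, 0.23, 0.21 and 0.15 after quantile normalization. Only Hnrnph3 fell in both (-0.47 and -0.37).

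Over all 46 genes, 5 had every Math1-GFP array below every conventional array (Hnrnpc, Sf3b6, Snrpb2, Snrpd3 and Snrpe), against 3.57% of all genes, and 1 had every Math1-GFP array above (Sf3b1), against 1.35%. Microglia markers differed as well: 10 of 10 fell in Math1-GFP tumours, with summed signals of 319 to 1502 in CD15 positive and 202 to 492 in CD15 negative cells against 643 to 12021 and 248 to 3634 in conventional tumours. Of 7 oligodendrocyte lineage markers 2 rose, Pdgfra (1.75) and Mbp (0.63), and Cnp fell (-0.76), with summed signals of 2396 to 3839 in CD15 positive and 1441 to 3101 in CD15 negative Math1-GFP cells against 1066 to 1829 and 1316 to 2008 in conventional tumours. Among 9 astrocyte markers 2 rose and 2 fell, with summed signals of 3840 to 10340 and 2401 to 3951 against 3255 to 7490 and 2948 to 6074 in the same order of groups. Of the rest, 0 of 4 neutrophil and 0 of 4 endothelial markers were called. The part of these cells in the difference between models was not tested.

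Other probe sets of the same genes were then compared. Of the 134 member probe sets, 14 rose with CD15 in conventional tumours, against 1.85% of all 27022 probe sets, and 1 fell, Sf3a1 probe set 1446687_at (-0.55, adjusted p = 0.003, limma). In total 15 were called, and leaving out 1 array gave 7 (CD15 positive array 4, or array 5 of the negative group), 8 (array 3 of the negative group) or 9 (arrays 1, 2 or 5 of the positive, 2 or 4 of the negative group). Between the models, 32 probe sets rose and 31 fell, against 26.9% and 15.4% of all probe sets. Brightness moved with the direction: 15 of the 45 dimmest probe sets rose and 2 fell, whereas 6 of the 45 brightest rose and 17 fell. Over the 134 probe sets the rank correlation of mean level with this difference was -0.37, and with the conventional CD15 difference 0.51. These are descriptions, since probe sets share genes and arrays, and the part of signal level in the results was not tested. The counts by brightness and the correlations were taken over member probe sets only, so they do not show a trait particular to the members.

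Probe sets of a gene also disagreed. In 3 of the 34 members with several probe sets past the filter (Hnrnpab, Hnrnpdl and Srsf3), 1 probe set was called higher and another lower between models, against 4.93% of all genes with several. The median spread between a member's probe sets (highest minus lowest) was 0.51, against 0.36 for all such genes. Members and all genes were not matched for the number of probe sets per gene, with which calls both ways and spread tend to grow. The following genes were chosen for this spread, so their values are a description. For Srsf3, probe set 1438215_at stood at 1.20 and 1434512_x_at at -0.32 between models. Their difference on an array ran from -2.28 to -1.20 in Math1-GFP and from -3.70 to -2.92 in conventional tumours, with no overlap. For Srsf1, 1452430_s_at stood at 1.02 and 1428099_a_at at -0.14, and their difference ran from -1.26 to -0.77 against -2.69 to -1.88. For Hnrnpu, 1434391_at minus 1423050_s_at ran from -3.45 to -2.77 against -5.13 to -3.59. Ranges of Hnrnpab and Srsf11 did not overlap either, whereas those of Snrpd3 did. Which transcripts these probe sets detect was not examined.

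**Figure D5:**
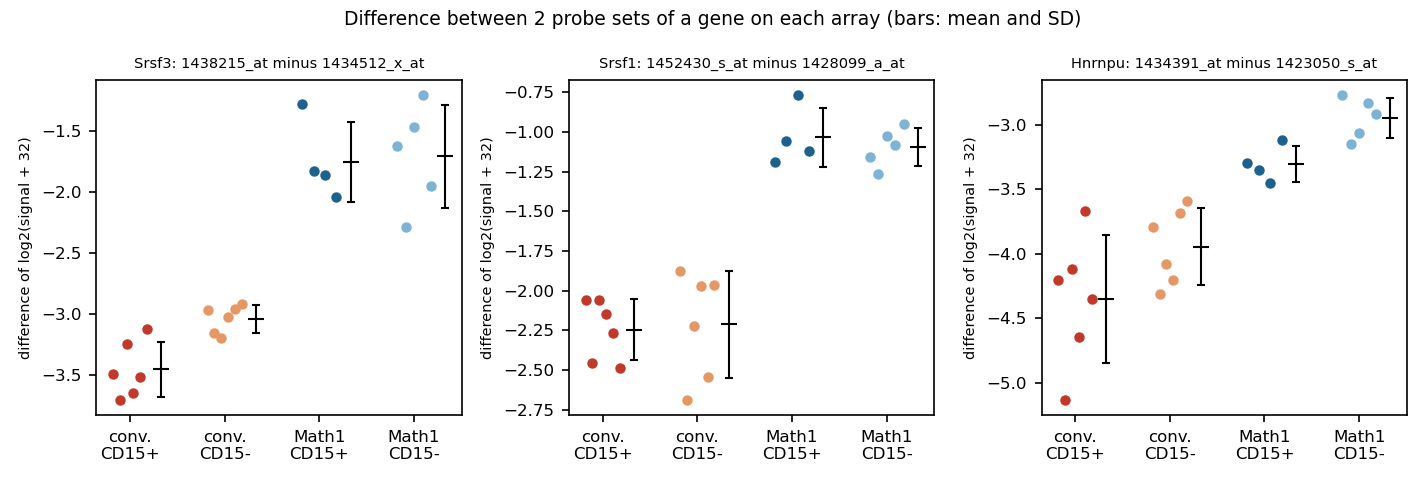
Difference of log2(signal + 32) between 2 probe sets of Srsf3, Srsf1 and Hnrnpu on each array (points), with group mean and SD. For Srsf3 the 9 Math1-GFP arrays lie between -2.28 and -1.20, above the 12 conventional arrays between -3.70 and -2.92.

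Further genes of the splicing pathway came from fixed lists of other components. Of 52 tested other spliceosome genes, 5 rose with CD15 in conventional tumours and 0 fell, with a median of 0.12. They were U2af1, which recognises the 3′ splice site (0.53 ± 0.12, adjusted p = 0.00705, limma), Lsm8 of the ring on U6 RNA (0.58 ± 0.15, adjusted p = 0.0164), Snrnp25 and Snrnp35 of the minor spliceosome (0.42 and 0.34), and Crnkl1 (0.39 ± 0.11, adjusted p = 0.0263). None of 21 SR-related proteins and SR protein kinases, none of 12 snRNP assembly genes and 1 of 5 exon junction genes, Rbm8a (0.36 ± 0.10, adjusted p = 0.0347), was called.

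Between models 10 of these 52 spliceosome genes rose and 20 fell, where 18.7% and 20.5% of all genes did, with Lsm4 (-0.69 ± 0.10), Snrnp35 (-0.65 ± 0.08), Prpf38a (-0.48 ± 0.07) and Plrg1 (-0.44 ± 0.06) among those that fell. Of the 21 SR-related genes 3 rose and 4 fell, close to the shares of all genes: Scaf8 (0.57) and Srek1 (0.62) were higher and Son, a nuclear speckle protein, was lower (-0.56). Coil, the marker of the Cajal bodies in which snRNPs mature, rose by 0.60 ± 0.10 (adjusted p = 8.5e-05, limma), and of 12 assembly genes 2 rose and 3 fell, again near those shares.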

How the data were processed

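Each of 21 RNA samples was measured on 1 Affymetrix mouse array. The authors deposited an intensity per probe set, not logged, from 0.0247 to 55079. Their software, background correction and summary method are not given in the sources used here. Every array was found to have the same mean (150) after the lowest and highest 2% were removed.

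Intensities were used as deposited, as log2(signal + 32), which makes fold changes of dim genes smaller. The 64 control probe sets and probe sets under the 40th percentile of mean log2 were left out. In the platform annotation 34958 probe sets carried 1 symbol, 932 several and 9211 none. All 139 member probe sets matched the RefSeq table of GRCm38.p6, with 0 symbols changed. The brightest probe set stood for a gene. In all, 4 group means were fitted to 21 arrays with limma 3.58.1 (eBayes) in R 4.3.3, with 17 residual degrees of freedom and 5 contrasts. P-values are two-sided and Benjamini-Hochberg adjusted over all genes of a contrast. The script was tested on simulated data.

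Titles share numbers 2 to 6 between the conventional fractions. Same-numbered arrays deviated together (correlations of deviations 0.58 to 0.76 in 5 of 5 pairs, at most 0.40 in other pairs of numbered arrays), so the numbers were taken to pair samples. The unnumbered arrays gave 0.72 with each other, and the unnumbered CD15 positive array gave 0.48 with CD15 negative array 6. No 2 arrays were identical. The main fit held no term for the pairs. Between models, where both fractions are averaged, its SEs and p-values may therefore be too small.

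The members and all 12 gene lists were chosen with earlier results of these data known. Named genes were 11 members set by name, up to 10 called members of smallest p per contrast and direction (3 of smallest p where fewer than 3 were called), 6 whose probe sets differed most, the brightest and dimmest of each family, and up to 4 called genes per other list. Some are left out for length, and Hnrnph3 and Hnrnpl were added after their values were seen.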

Additional observations from a re-analysis of the deposited data

Results flagged for a closer look

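Within groups of 4 to 6 arrays, 9 of 168 tested sets of values had 1 array far from the others, where chance gives about 8.4. Conventional CD15 negative array 1 was high for Hnrnpc (12.97, next 12.63), for Snrpb2 (11.69, next 11.24) and for the Snrp score (11.42, next 11.04). Conventional CD15 negative array 5 was low for the Sf3b score (10.42, next 10.56) and the Srsf score (11.15, next 11.42). Conventional CD15 positive array 5 was low for Srsf9 (10.78, next 10.96). Among Math1-GFP arrays, CD15 positive array 1 was low for Sf3b3 (9.69, next 10.22), CD15 positive array 9 was low for Snrpa1 (10.47, next 10.53), and CD15 negative array 2 was low for Sf3b5 (9.85, next 10.09).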

How the results depend on the processing

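The number of arrays limits the precision. Except for genes under quantile normalization, the shares of all genes or probe sets called under the alternatives below are not given here. A larger count of members therefore need not be particular to them. The member genes called for CD15 in conventional tumours (10) became 2 with quantile normalization, 4 with the conventional groups alone, 21 with consecutive Math1-GFP numbers as a second block, 1 within arrays 2 to 5 and 0 within the other 4. In Math1-GFP tumours (0) the consecutive block gave 1, for genes and for probe sets. In the average over models (9) quantile normalization gave 3, the consecutive block 25, leaving out both Math1-GFP arrays 1 and 2 gave 5, and a block for the 2 sets of conventional arrays 14. Called probe sets in conventional tumours (15) became 7, 5, 33, 4 and 0 under quantile normalization, groups alone, the consecutive block, arrays 2 to 5 and the other 4. Probe sets in the average (9) became 19 with the larger pseudocount, 15 with a 60th percentile filter, 16 with trend and robust estimation, 16 with the replicate block, 39 with the consecutive block and 18 with the set block. The replicate block on paired numbers 2 to 6 called 12 genes in conventional tumours, 13 in the average and 26 between models, within 1.5 times of the main counts. This block takes the spread between pairs out of the error, so between models it does not correct for the pairing. Leaving out 1 array gave 4 to 14 genes in conventional tumours, 4 to 13 in the average, 22 to 28 between models and 0 in Math1-GFP tumours and the interaction; for probe sets 7 to 17, 7 to 16, 58 to 64 and 0. Between models no count moved by over 1.5 times, but the split of 8 higher and 19 lower genes became 23 and 9 with quantile normalization and 11 and 13 with averaged probe sets. Directions between models turned with quantile normalization, among members called in either scaling, for Hnrnpa0 (0.20), Srsf1 (0.29), Srsf3 (0.089), Hnrnpa1 (0.21), Hnrnpa2b1 (0.23), Hnrnpk (0.43), Hnrnpd (0.15), Hnrnpf (0.34), Hnrnpdl (0.21) and Hnrnpab (0.24), and also, with no call in either, for Srsf6 (0.18), Sf3b2 (0.10) and Sf3a1 (-0.028). With averaged probe sets, named genes that turned included Srsf1 (0.29), Hnrnpd (0.11) and Hnrnpdl (0.090), and Hnrnpk (0.074) with no call in either. The cause was not tested. Of 45 calls of named genes, 12 held under every alternative, all between models except Snrpb and Srsf9 in the average.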

Other observations

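The 16 probe sets that list a member symbol together with other symbols, such as those shared by Snrpn and Snurf, were not part of the comparisons. Of the 15 past the filter, 4 rose and 0 fell with CD15 in conventional tumours, 3 rose in the average over models, 0 were called in Math1-GFP tumours, and 2 rose and 6 fell between models.

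Members were measured by probe sets of several design classes, named by their suffix. The probe set used for a gene ended in _at for 22 genes, in _a_at for 13, in _s_at for 7 and in _x_at for 4, and the last 2 classes can detect more than 1 transcript or similar sequences of other genes.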
